A study of Mus musculus with 12 samples.

Results

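Fulvestrant, a drug that blocks and degrades the estrogen receptor ESR1, was compared with its absence across all 12 RNA-Seq samples of the study, regardless of whether estradiol (E2) was present. The 6 samples with fulvestrant were the 3 of fulvestrant alone and the 3 of E2 plus fulvestrant, and the 6 samples without it were the 3 of vehicle and the 3 of E2, so that 12 of 12 samples and all 13233 listed genes entered the comparison. The cells were hernia-associated fibroblasts (HAFs), primary fibroblasts labelled as skeletal muscle fibroblasts and grown from the lower abdominal muscle (LAM) of Aromhum mice. These mice carry a human aromatase transgene, the enzyme that makes estrogens from androgens, and develop inguinal hernias. Vehicle was ethanol and DMSO, E2 was used at 10 nM, fulvestrant at 100 nM, and all cultures were harvested after 48 hours in low, charcoal-stripped serum.

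Every sample came from Aromhum cells, so no culture without the transgene entered the comparison. The labels give neither the number of animals behind a culture nor what a replicate number stands for, and p-values therefore measure only the spread between these samples. Fulvestrant was given at 1 dose and 1 time, and RNA was read but not ESR1 protein.

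ESR1 is a nuclear receptor that binds E2 and then acts at DNA, together with coregulators, to raise some genes and lower others. Fulvestrant occupies the same ligand pocket, keeps the receptor from recruiting coactivators and leads to its breakdown. Fibroblasts of muscle make and remodel the collagen and elastic matrix between muscle fibres, and they supply WNT, IGF and BMP signals to their neighbours.

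Reads on listed genes ran from 18827792 to 44040507 per sample, with medians of 31703872 with fulvestrant and 31732683 without it. Each listed gene had at least 10 reads in every sample. The replicate number accounted for 70.03% of the variance of log2 values, fulvestrant for 13.83% and E2 for 2.32%. The 4 samples of replicate number 1 stood apart, at -60.46 to -43.48 on the first principal component (70.8% of the variance), with the other 8 at 15.09 to 35.6. After the replicate number was taken out, the first principal component placed the 6 samples with fulvestrant between 14.55 and 20.85 and the 6 without it between -21.46 and -15.02. All 9 fibroblast markers were listed, and 6 of them were lower with fulvestrant, namely Col1a1, Col1a2, Col3a1, Dcn, Lum and Esr1. Their summed normalized counts were 330723.3 to 395080.2 with fulvestrant and 441147.8 to 566637.4 without it. The call of Dcn was lost without replicate number 2 (limma adjusted p = 0.117) or 3 (0.108). None of the 8 myogenic, 4 adipocyte and 5 epithelial or mesothelial markers was listed, while 1 of 6 endothelial, 2 of 6 leukocyte, 3 of 4 pericyte and smooth muscle, 2 of 4 Schwann and 3 of 4 tenocyte markers were. Summed tenocyte markers were 1527.7 to 8831.6 with fulvestrant and 2395.6 to 12238.9 without it, with Tnmd and Mkx lower. Summed Schwann markers were 111.9 to 171.1 and 158.7 to 222.7, with S100b lower. Of the leukocyte markers Lyz2 was lower (sums of 131.1 to 188.1 with and 90.7 to 389.3 without fulvestrant). Of the pericyte and smooth muscle markers Myh11 was higher and Notch3 lower (sums of 1939.6 to 4438.5 and 2123.6 to 3517.4), and the endothelial marker was not called. Myh11 was called in 7 of the 12 models that each left out 1 sample. The part of these markers in the gene groups described here was not tested, and in bulk samples fewer cells of a type and less RNA per cell cannot be told apart.

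Fulvestrant moved a large share of the transcriptome in both directions. Of 13233 genes, 2074 (15.7%) were called at a Benjamini-Hochberg adjusted p under 0.05 by limma and a fold change over 1.2, with E2 and replicate number in the model. Of these, 1029 (7.78% of genes tested) were higher with fulvestrant and 1045 (7.9%) were lower. Most shifts were modest, with a median fold of 1.35 among higher and 1.38 among lower genes and a median standard error of 0.06 log2 units over all genes. A fold over 2 was reached by 73 higher and 103 lower genes, and a fold over 4 by 5 and 3. Of the higher genes 887 (86.2%) rose in 6 of 6 same-numbered pairs, and of the lower genes 880 (84.2%) fell in 6 of 6, but these genes were called by a model blocked on the same replicate numbers. Over all genes 3603 (27.2%) had the same direction in 6 of 6 pairs. The values of the 6 samples with fulvestrant and the 6 without did not overlap for 569 genes (4.3%). With no replicate block in the model the calls numbered 386, all of them among the 2074. In that model the called members of all 37 gene lists with calls fell by over 1.5 times, and in 8 of these lists to 0 by limma, with 0 to 9 members at an unadjusted p under 0.05. Without the 4 samples of replicate number 1 there were 1222 higher and 1022 lower genes, and 1648 of the 2074 were called again.

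The effect was read in each E2 state separately from the same samples. Between E2 plus fulvestrant and E2, 1270 genes (9.6%) were called, 658 higher and 612 lower. This count fell to between 772 and 840 without E2 replicate 2 or 3 or without any 1 of the 3 E2 plus fulvestrant samples, to 342 without replicate number 2 and to 316 without replicate number 3. Between fulvestrant and vehicle, 1648 genes (12.5%) were called, 895 higher and 753 lower. This second count fell to between 1048 and 1088 without vehicle replicate 3 or without fulvestrant replicate 2 or 3, to 540 without replicate number 2 and to 399 without replicate number 3. Both comparisons called 920 genes, all in the same direction, which was 72.4% of the first set and 55.8% of the second. Over all genes, 73.9% had the same sign in both E2 states. The test of the difference between the 2 states called 0 genes by limma, with 501 genes (3.79%) at an unadjusted p under 0.05 and a smallest adjusted p of 0.237. Pooled over fulvestrant, the E2 term of the same model also called 0 genes by limma, with 854 genes (6.45%) at an unadjusted p under 0.05.

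**Figure D1:**
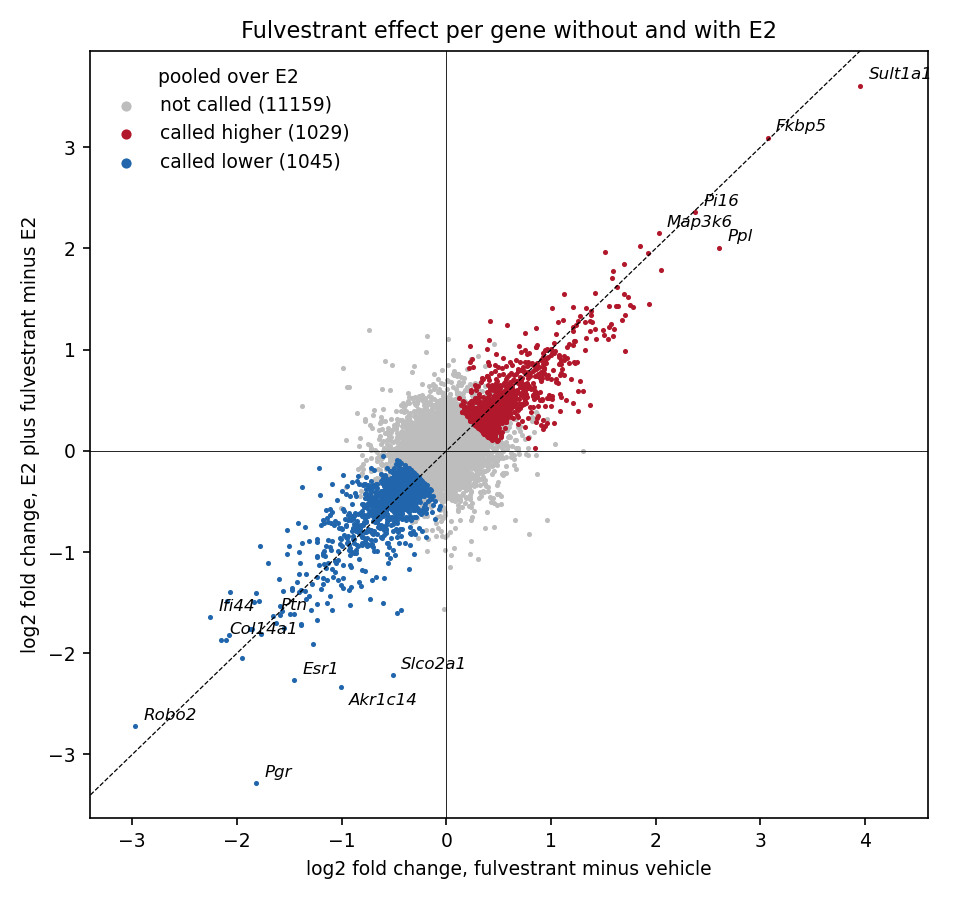
Each point is 1 of 13233 genes, placed by the log2 fold change of fulvestrant against vehicle on the x axis and of E2 plus fulvestrant against E2 on the y axis, and coloured by the call pooled over E2 (1029 higher, 1045 lower, 11159 not called). The dashed line marks equal change, and the called genes lie in the lower left and upper right, with Pgr, Akr1c14 and Slco2a1 below the line.

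The drug target and its best known target gene both fell. Esr1, which encodes the receptor itself (chromosome 10, 4611593 to 5005614, plus strand), had 247 to 646 (median 502) normalized counts without fulvestrant and 76.2 to 222 (median 94) with it (log2 fold change -1.86, standard error 0.18, limma adjusted p = 1.96e-05). The 2 sets of samples did not overlap. Pgr, the progesterone receptor and a classical ESR1 target (chromosome 9, 8899833 to 8968611, plus strand), had 25.4 to 304 (median 125) without fulvestrant and 13 to 28.4 (median 18.9) with it (log2 fold change -2.55, standard error 0.28, limma adjusted p = 5.07e-05). Its groups overlapped because vehicle replicate 1, at 25.4, lay within the range of the treated samples, and the differences within the 6 same-numbered pairs were -3.45 to -0.91 log2 units. The log2 fold change of Pgr was -3.28 in E2 and -1.82 without E2, and that of Esr1 was -2.26 and -1.46. Neither difference between E2 states passed the adjustment (limma interaction, Benjamini-Hochberg adjusted p = 0.944 for Pgr and 0.944 for Esr1).

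Of 29 measured genes of the estrogen-responsive list, 6 were higher, 6 were lower and 17 were not called (41.4% called, against 15.7% over all genes), and the median log2 fold change was -0.04, against 0.007 over all genes. Igf1, a growth factor raised by E2 in many tissues, showed little scatter: it had 2419 to 2906 (median 2687) without fulvestrant and 1567 to 1724 (median 1665) with it (log2 fold change -0.69, standard error 0.04, limma adjusted p = 1.1e-06). Its groups did not overlap. Igfbp4, which binds IGF1, fell by 0.92 on the log2 scale, and Cxcl12, a chemokine, fell by 0.44. Single values in parentheses after a gene are its log2 fold change, with minus without fulvestrant. Slc7a5, an amino acid transporter (0.69), Myc (0.65), a growth regulator, and Ccnd1 (0.60), the G1 cyclin D1, rose. The call of Ccnd1 was lost without the 4 samples of replicate number 2 (limma adjusted p = 0.0553) or 3 (0.0628).

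Among 30 measured nuclear receptors, 6 were higher and 5 lower (36.7% called, against 15.7% over all genes). Besides Esr1 and Pgr, the glucocorticoid receptor fell (Nr3c1, -0.36, adjusted p = 0.00131 by limma). The oxysterol receptor Nr1h3 (0.81), the vitamin D receptor Vdr (0.66) and the thyroid hormone receptor Thrb (0.59) rose, and the values of Nr1h3 did not overlap between groups. Few coregulators were called: 0 of 28 were higher by limma (6 at an unadjusted p under 0.05) and 1 was lower, Ppargc1a (-0.72), a coactivator of mitochondrial genes. This total of 1 call (3.6% of the list, against 15.7% over all genes) became, in either direction, 4 without fulvestrant replicate 3, 3 without vehicle replicate 3 and 2 without vehicle replicate 2, E2 replicate 1 or fulvestrant replicate 2. The total was 6 without replicate number 3 and 2 without replicate number 1. The receptor of dioxins and other aromatic ligands, Ahr, fell (-1.25), and its groups did not overlap. Without the 4 samples of replicate number 1 its log2 fold change was -0.73.

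**Figure D2:**
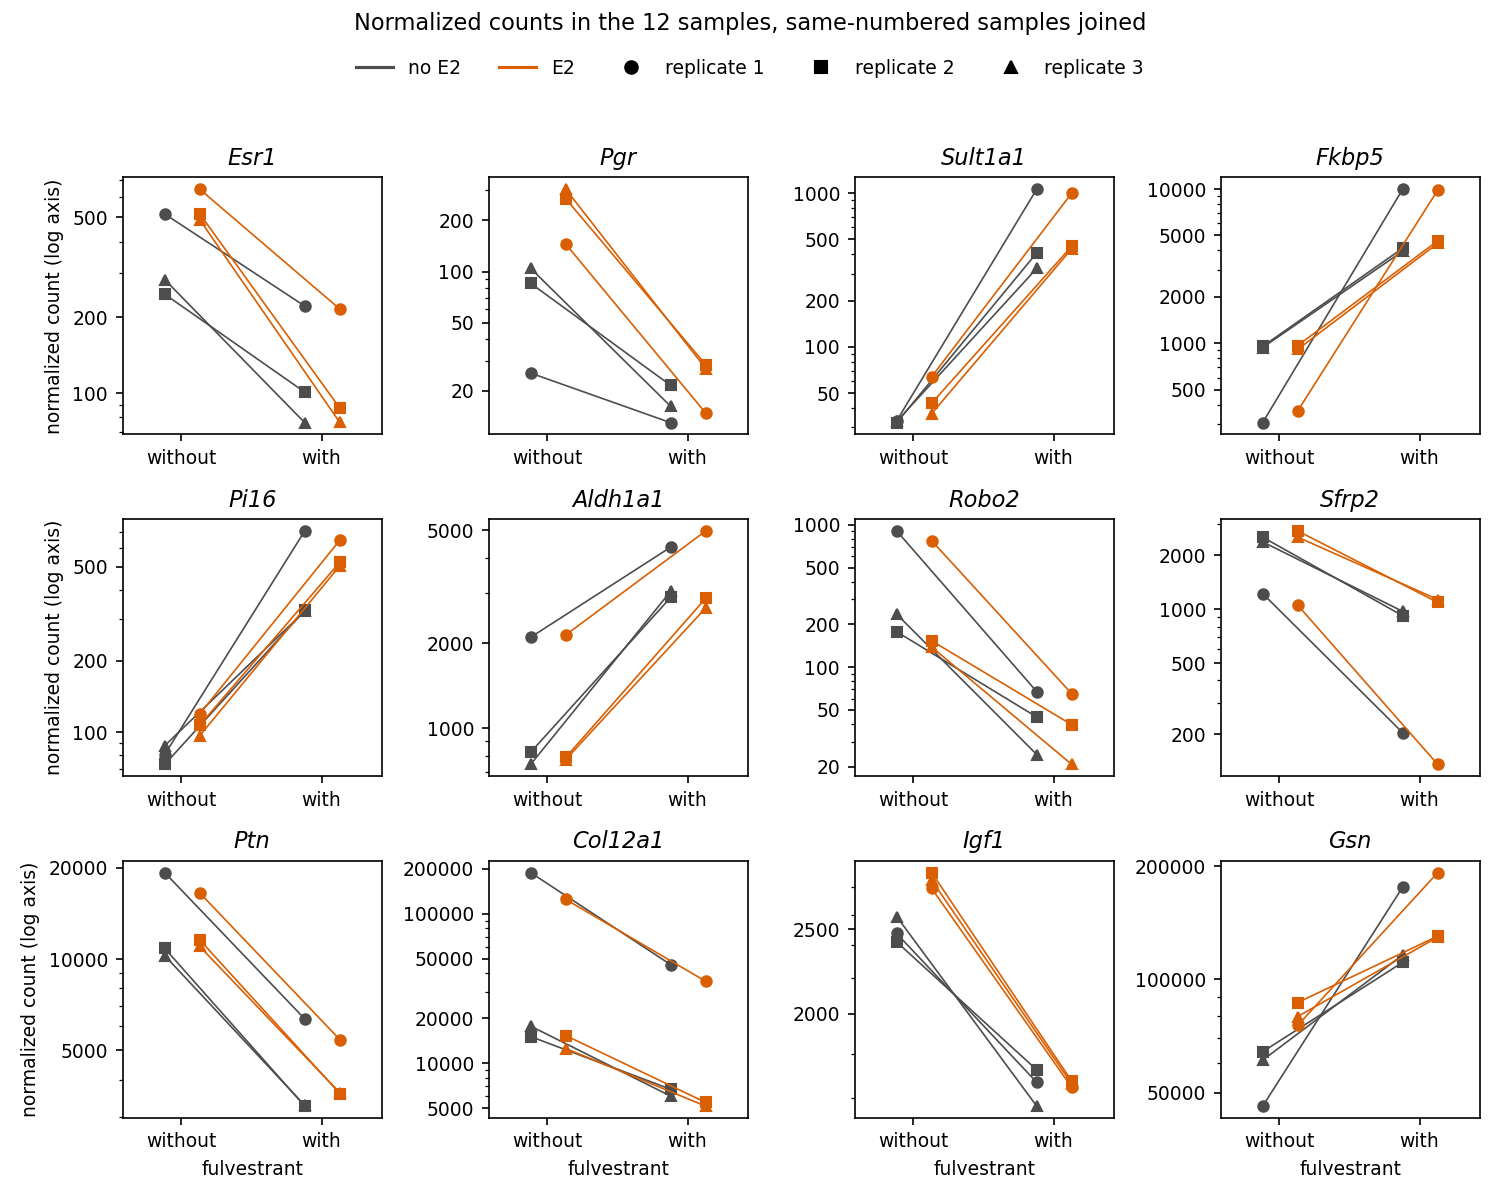
Normalized counts (log axis) of 12 genes in each of the 12 samples, without and with fulvestrant, with same-numbered samples of the same E2 state joined and E2 state shown by colour. All lines of Esr1, Pgr, Robo2, Sfrp2, Ptn, Col12a1 and Igf1 slope down and all lines of Sult1a1, Fkbp5, Pi16, Aldh1a1 and Gsn slope up.

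The largest rises were in Sult1a1 and Fkbp5. Sult1a1 encodes a sulfotransferase of phenols and estrogens (chromosome 7, 126672865 to 126676432, minus strand) and had 32.2 to 64.1 (median 35) normalized counts without fulvestrant and 324 to 1061 (median 444) with it (log2 fold change 3.78, standard error 0.18, limma adjusted p = 9.06e-08), a fold of 13.7. Fkbp5 encodes a co-chaperone of steroid receptors (chromosome 17, 28399094 to 28517527, minus strand) and had 307 to 968 (median 927) and 3957 to 9974 (median 4534) (log2 fold change 3.08, standard error 0.37, limma adjusted p = 0.000104), a fold of 8.46. Neither gene overlapped between the groups. Within pairs the rise of Fkbp5 was 4.75 and 5.02 log2 units in replicate number 1 and 2.07 to 2.28 in the other 4 pairs. Pi16, a secreted protein used as a marker of adventitial fibroblasts, had 73.1 to 119 (median 92.1) and 324 to 707 (median 513) (log2 fold change 2.37, standard error 0.13, limma adjusted p = 3.98e-07). Ppl, the junctional plakin periplakin, had 37.5 to 244 (median 131) and 483 to 665 (median 586) (log2 fold change 2.31, standard error 0.25, limma adjusted p = 5.04e-05). Map3k6, a stress kinase, had 101 to 129 (median 111) and 387 to 588 (median 466) (log2 fold change 2.09, standard error 0.10, limma adjusted p = 9.06e-08). The 6 treated samples of each of these 3 genes lay above all 6 untreated samples.

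Further down the 15 largest rises among genes that rose in 6 of 6 pairs with a mean of at least 50 normalized counts were Ace (1.93), the angiotensin-converting enzyme, Nell2 (1.92), a secreted guidance protein, the adhesion receptor Adgrg2 (1.77), Vat1l (1.74), the mitochondrial Acss3 (1.69), Nxph3 (1.65) and Ereg (1.63), the EGF family ligand epiregulin. The retinaldehyde dehydrogenases Aldh1a1 (1.63) and Aldh1a7 (1.68) rose together, but the genes are close paralogs whose reads could be split between them. Aldh1a1 had 746 to 2135 (median 807) normalized counts without fulvestrant and 2661 to 4973 (median 2973) with it, without overlap. Ctla2a rose by 1.94 and shares 16.3% of its exon bases with another annotated gene on the same strand. With no replicate block the calls of Nell2 (limma adjusted p = 0.48), Aldh1a7 (0.254), Ace (0.14) and Ereg (0.0759) were lost. Those of Adgrg2, Vat1l, Acss3, Nxph3, Aldh1a1 and Ctla2a held.

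The largest falls were led by Robo2, a receptor for the guidance cue SLIT (chromosome 16, 73891839 to 74411825, minus strand), with 139 to 908 (median 207) normalized counts without fulvestrant and 20.7 to 67.3 (median 42) with it (log2 fold change -2.85, standard error 0.23, limma adjusted p = 4.64e-06), a fold of 7.21 and no overlap. Col14a1, a collagen that binds the surface of fibrils, had 282 to 1025 (median 315) and 60.1 to 112 (median 102) (log2 fold change -2.01, standard error 0.27, limma adjusted p = 0.000218). Its groups did not overlap, and the highest untreated value came from vehicle replicate 1. Ptn, the heparin-binding growth factor pleiotrophin, had 10271 to 19297 (median 11289.8) and 3269 to 6345 (median 3609) (log2 fold change -1.65, standard error 0.06, limma adjusted p = 1.43e-08). Sfrp2, a secreted WNT modulator, had 1053 to 2733 (median 2449) and 136 to 1131 (median 945) (log2 fold change -1.79, standard error 0.22, limma adjusted p = 0.000114). Ptn did not overlap between groups, while Sfrp2 did.

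Among genes that fell in 6 of 6 pairs with a mean of at least 50 normalized counts, the other large falls were Ryr3 (-2.0), an intracellular calcium channel, Chodl (-1.99), Lrrn3 (-1.95), Npnt (-1.79), a basement membrane ligand of integrins, Nrk (-1.73), Rspo2 (-1.67), which amplifies WNT signals, Piezo2 (-1.67), a stretch-gated channel, and Gdf10 (-1.65), a BMP-like ligand. Sv2c, a vesicle protein, had a log2 fold change of -1.81 with adjusted p = 0.0256 by limma. Its call was lost without E2 replicate 1 (-1.55, adjusted p = 0.063) and without E2 plus fulvestrant replicate 1 (-1.51, adjusted p = 0.0681). It was also lost without replicate number 1 (limma adjusted p = 0.055) or 2 (0.0529), with no replicate block (0.127) and with no variance trend. Without all samples of replicate number 1 the log2 fold changes of Lrrn3, Npnt and Sv2c were -0.99, -1.06 and -0.56.

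**Figure D3:**
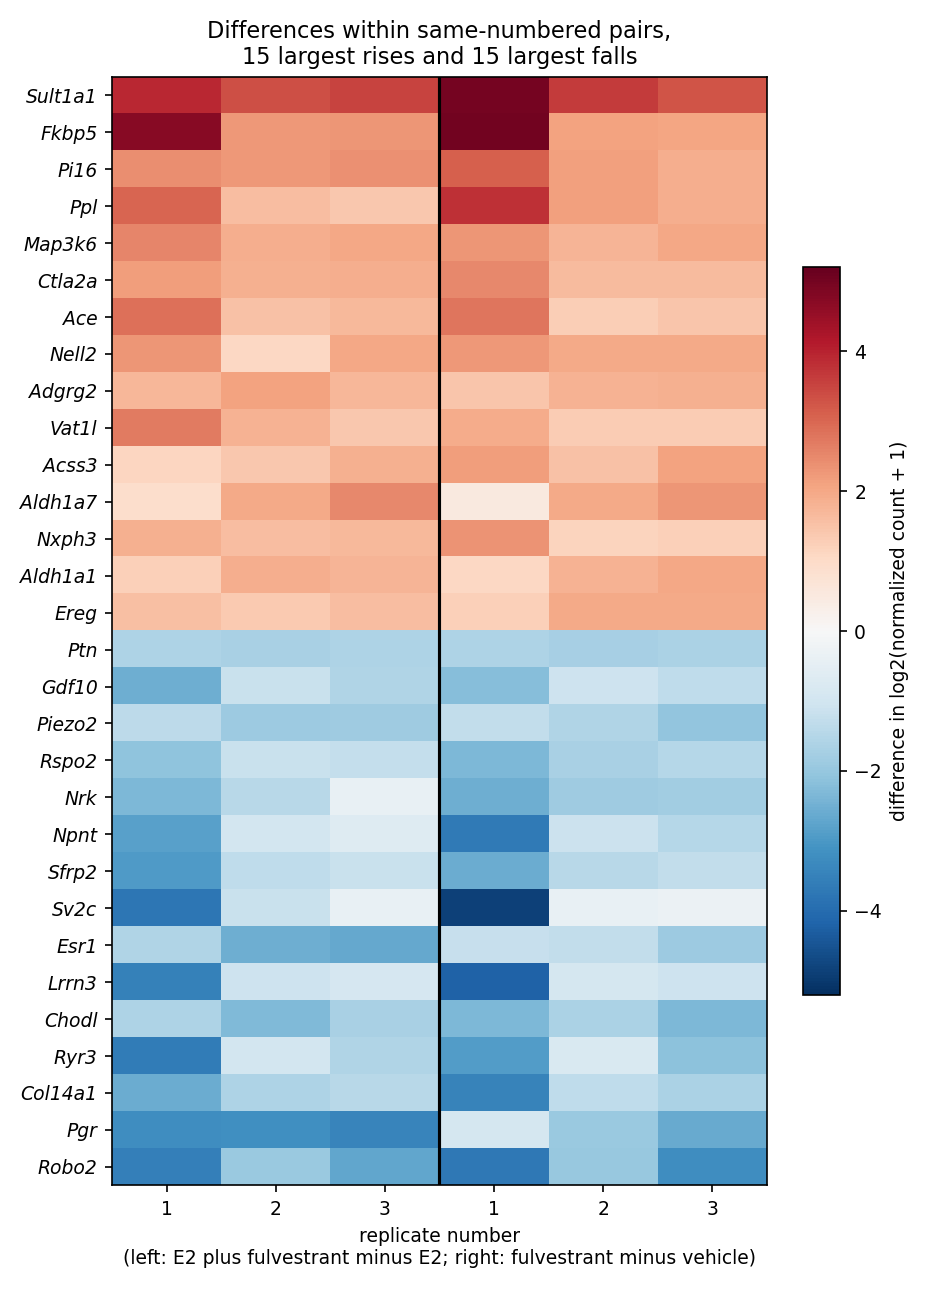
Differences in log2(normalized count + 1) within the 6 same-numbered pairs for the 15 largest rises and 15 largest falls, with the 3 pairs in E2 to the left of the line and the 3 pairs without E2 to the right. The 30 genes were chosen among those that moved 1 way in 6 of 6 pairs, so that each keeps 1 colour by choice, and the depth of colour varies between pairs.

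Among the 39 lists, the glucocorticoid-responsive list had the highest median change. Lists and members were chosen with earlier results of these data known, so this rank and the share called are not independent of those results. The glucocorticoid list holds genes that the glucocorticoid receptor is known to raise, a receptor related to ESR1 that binds its own DNA element. Of 29 measured members 24 were higher, 1 was lower and 4 were not called (86.2% called, against 15.7% over all genes), with a median log2 fold change of 0.83. Besides Sult1a1, Fkbp5 and Map3k6, the acute-phase protease inhibitor Serpina3n (1.61), the EGFR feedback inhibitor Errfi1 (1.53), glutamine synthetase Glul (1.38), the MAP kinase phosphatase Dusp1 (1.36) and the transcription factor Cebpd (1.21) rose. Other well known members had smaller changes. Tsc22d3, which encodes GILZ, had 1231 to 2950.2 (median 1348) normalized counts without fulvestrant and 1867 to 8903 (median 2010.4) with it (log2 fold change 0.90, standard error 0.14, limma adjusted p = 0.000717), and Sgk1, a kinase of ion transport, had 1235 to 2280.0 (median 1960.5) and 1704 to 4288 (median 4025) (log2 fold change 0.84, standard error 0.08, limma adjusted p = 1.43e-05). The groups of both genes overlapped. Per1, a clock gene, had 1270.5 to 1605 (median 1487) and 2217 to 2924 (median 2343) (log2 fold change 0.76, standard error 0.08, limma adjusted p = 5.13e-05), without overlap. The member that fell was Timp3 (-0.66), an inhibitor of matrix proteases, and Cdkn1a and Nfkbia were not called (0.05 and 0.11). The model with no replicate block called 11 members, all higher. Serpina3n belongs to a family of close copies whose reads could be shared.

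The promoter of Sgk1 is shown because it was the 1 promoter, among 9439 tested genes with a RefSeq promoter window, that held an exact palindromic glucocorticoid response element. The motif searched was AGAACA, any 3 bases and TGTTCT, a palindrome read on both strands, in 250 bases before to 50 after each start (RefSeq, GRCm38.p6). The window shown is 1 of the 6 of Sgk1, chr10:21993640-21993939 on the plus strand, with the match in capitals.
Sgk1: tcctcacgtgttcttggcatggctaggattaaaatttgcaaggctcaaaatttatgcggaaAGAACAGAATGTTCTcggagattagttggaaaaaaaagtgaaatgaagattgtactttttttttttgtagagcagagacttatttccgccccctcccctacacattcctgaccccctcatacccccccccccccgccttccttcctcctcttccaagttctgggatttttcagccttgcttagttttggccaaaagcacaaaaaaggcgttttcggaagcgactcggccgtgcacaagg
The other 25 glucocorticoid-list genes with a window held no exact match, so the list had 3.85% of genes with one. The exact estrogen response element, GGTCA, any 3 bases and TGACC, was found in 1 of the 9439 genes and in 0 of the 20 estrogen-responsive genes with a window. A match describes the letters of the window and not a bound site.

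Immediate-early genes, which are switched on within minutes of growth factor or stress signals, and the phosphatases that then damp the kinase ERK were higher in 24 of 36 cases (66.7%, against 7.78% over all genes) and lower in 0, also at an unadjusted p under 0.05 by limma, with a median log2 fold change of 0.49. The AP-1 subunits Fosl1 (1.32), Jun (0.87) and Fosl2 (0.82), the stress factor Atf3 (1.05) and the ERK phosphatases Dusp5 (0.87) and Dusp6 (0.67) rose. Egr1 had 1512 to 7230.4 (median 6832) normalized counts without fulvestrant and 3174 to 9686 (median 8991) with it (log2 fold change 0.60, standard error 0.10, limma adjusted p = 0.000725), and its groups overlapped. The related Egr2 and Egr3 were not called (-0.11 and -0.29). Of this list 2 members were called with no replicate block. Leaving out 1 replicate number gave 22 to 24 higher and 0 to 2 lower members. Without replicate number 1 the change of Jun was 0.57 and that of Cebpd 0.74.

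Of 40 ribosome biogenesis genes, which encode nucleolar and ribosome assembly factors, 24 were higher (60.0%, against 7.78% over all genes) and 0 lower, also at an unadjusted p under 0.05 by limma (median 0.30). The higher genes included Rrp12 (0.50), Znhit6 (0.49), Tsr1 (0.45) and Nop56 (0.51), which shares 8% of its exon bases with another gene. Of 78 cytosolic ribosomal proteins 0 were called by limma, with a median of -0.10. An unadjusted p under 0.05 was reached by 17 of the 78, all with negative values, and the count called was 2 without fulvestrant replicate 3, 1 without vehicle replicate 3 and 4 without replicate number 3. With no replicate block 0 biogenesis genes were called by limma, and 9 had an unadjusted p under 0.05.

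Heat shock chaperones were higher in 12 of 27 cases (44.4%, against 7.78% over all genes) and lower in 0, also at an unadjusted p under 0.05 by limma (median 0.25). The largest rises were in the inducible HSP70 copies Hspa1b (0.91) and Hspa1a (0.89), near-identical genes whose reads cannot be assigned with certainty, in the small chaperone Hspb1 (0.80) and in the inducible HSP90 Hsp90aa1 (0.48). The constitutive Hsp90ab1 was not called (0.07). With no replicate block 0 chaperones were called by limma, and 0 had an unadjusted p under 0.05.

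Hypoxia and glycolysis genes were higher in 16 of 34 cases and lower in 1 (50% called, against 15.7% over all genes), with a median of 0.25. With no replicate block 2 were called, both higher. Ndrg1, a stress-induced gene, had 4331 to 5621 (median 5339) normalized counts without fulvestrant and 7962 to 9250.3 (median 9049) with it (log2 fold change 0.81, standard error 0.05, limma adjusted p = 3.98e-07), without overlap. The collagen prolyl hydroxylase P4ha2 (0.70), the glucose transporter Slc2a1 (0.68) and hexokinase Hk2 (0.66), which traps glucose in the cell, rose, as did Ldha (0.41) and Vegfa (0.32). Adm (-0.31), Pdk1 (-0.21) and Hif1a (0.21), which encodes the oxygen-regulated factor itself, were not called.

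Oxidative stress genes and metallothioneins were higher in 12 of 29 cases and lower in 2 (48.3% called; median 0.17). With no replicate block 0 of the 29 were called by limma, and 5 had an unadjusted p under 0.05. The zinc-binding Mt2 (1.31) and Mt1 (0.84), which are close copies, the peroxidase Gpx3 (0.91), the cystine carrier Slc7a11 (0.87) and heme oxygenase Hmox1 (0.78) rose. Prdx4 (-0.45) fell, and Nqo1 (0.17) was not called. Of 34 genes of the unfolded protein and integrated stress responses 9 were higher and 0 lower by limma (7 lower at an unadjusted p under 0.05), which was 26.5% called against 15.7% over all genes, led by Atf3 and the amino acid carriers Slc7a11 and Slc7a5, while the endoplasmic reticulum chaperones Calr (-0.14), Pdia4 (-0.16) and Manf (-0.15) were not called.

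The promoters of Slc2a1 and Mt2 are printed as examples from the hypoxia and oxidative stress lists. Capitals mark hypoxia response elements (HRE, GACGTG) in Slc2a1 and metal response elements (MRE, TGCGCNC or TGCACNC) in Mt2. Both motifs were searched on both strands of the same 300-base RefSeq windows. The window of Slc2a1 also held MRE letters, which are left in lower case.
Slc2a1: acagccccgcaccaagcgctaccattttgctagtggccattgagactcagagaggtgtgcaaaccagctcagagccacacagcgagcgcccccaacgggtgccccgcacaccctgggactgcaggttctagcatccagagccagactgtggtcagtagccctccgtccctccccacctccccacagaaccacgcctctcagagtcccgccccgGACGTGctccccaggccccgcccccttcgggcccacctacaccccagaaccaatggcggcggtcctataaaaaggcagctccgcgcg
Mt2: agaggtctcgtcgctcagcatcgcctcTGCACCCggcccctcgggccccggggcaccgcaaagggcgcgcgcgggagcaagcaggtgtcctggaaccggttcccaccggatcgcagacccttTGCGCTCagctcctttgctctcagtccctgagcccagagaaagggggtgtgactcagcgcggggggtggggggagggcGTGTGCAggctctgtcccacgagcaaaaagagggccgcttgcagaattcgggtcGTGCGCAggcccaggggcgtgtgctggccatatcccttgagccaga
The window of Slc2a1 is chr4:119108495-119108794 and that of Mt2 is chr8:94172368-94172667, both on the plus strand. The HRE letters were present in 13 of 31 hypoxia genes with a window (41.9%) and in 10.9% of all 9439, and the MRE letters in 7 of 24 oxidative stress genes (29.2%) and in 41.5% of all.

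Of 29 collagen chains 3 were higher, 7 were lower and 19 were not called (34.5% called, against 15.7% over all genes; median -0.06). Col12a1, which links fibrils to their surroundings, had 12517 to 188320.0 (median 16483) normalized counts without fulvestrant and 5147 to 45554 (median 6341) with it (log2 fold change -1.56, standard error 0.10, limma adjusted p = 1.29e-06), and its groups overlapped. The main chains of collagen types I and III fell less, with log2 fold changes of -0.55 for Col1a1, -0.43 for Col1a2 and -0.52 for Col3a1. The basement membrane chains Col4a1 (0.64) and Col4a2 (0.54) and the type V chain Col5a3 (0.95) rose. The call of Col1a2 was lost without replicate number 2 (limma adjusted p = 0.0578) or 3 (0.0976). Lox, the main collagen cross-linking enzyme, was not called (0.08), while its relatives Loxl1 (-0.73) fell and Loxl4 (0.61) rose.

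Elastic fibre genes were lower in 12 of 23 cases and higher in 2 (60.9% called, against 15.7% over all genes), with a median of -0.30. They included the fibrillin Fbn2 (-0.89), the elastic fibre assembly protein Fbln5 (-0.93), the microfibril protein Mfap4 (-1.06), the hemicentin Hmcn1 (-1.06) and the latent TGF-beta binding protein Ltbp1 (-0.65). Fbn2 had 2398 to 4715 (median 2867) normalized counts without fulvestrant and 1062 to 1932 (median 1780.2) with it, without overlap. The model with no replicate block called 1 member higher and 2 lower.

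Of 49 matrix glycoproteins and proteoglycans 19 were lower, 6 were higher and 24 were not called (51.0% called, against 15.7% over all genes; median -0.10). Egfl6 (-1.61), Cthrc1 (-1.55), a secreted protein of injured matrix, the small proteoglycan Lum (-1.25) and Npnt fell. Postn, the matricellular protein periostin, had 17332 to 122291 (median 117294) normalized counts without fulvestrant and 10262 to 68548 (median 67751) with it (log2 fold change -0.85, standard error 0.07, limma adjusted p = 7.06e-06), and its groups overlapped. Lama2 (1.0), a muscle laminin, Vcan (0.93), a large proteoglycan, and Spp1 (0.86) rose, and Fn1, fibronectin, was not called (0.28).

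Matrix proteases and their inhibitors were lower in 15 of 38 cases and higher in 8 (60.5% called, against 15.7% over all genes; median -0.16). Adamts3 (-1.33), which trims procollagen, Adamtsl1 (-1.32), Adamts4 (-1.02), which cuts proteoglycans, and Adamts6 (-0.42) fell. The protease inhibitors Timp1 (0.70) and Timp2 (0.44) rose, while Timp3 fell. Mmp14, a membrane collagenase, was not called (0.04). The log2 fold change of Adamts3 was -0.89 without replicate number 1.

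WNT pathway genes were lower in 15 of 35 cases and higher in 4 (54.3% called, against 15.7% over all genes), with a median of -0.19. The R-spondins Rspo2 (-1.67) and Rspo3 (-1.64), secreted amplifiers of WNT receptors, the secreted modulators Sfrp2 (-1.79) and Sfrp1 (-0.94), the ligand Wnt5a (-0.63) and the receptors Fzd8 (-0.83) and Fzd6 (-0.79) fell. Rspo3 had 1507 to 7080.2 (median 2001) normalized counts without fulvestrant and 641 to 1303 (median 796) with it, without overlap. Nkd2, an intracellular inhibitor, rose (0.99, and 0.65 without replicate number 1). Axin2, the usual transcript read as a WNT target, had a log2 fold change of -0.37 and was not called (adjusted p = 0.077 by limma).

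BMP pathway genes were lower in 10 of 28 cases and higher in 6 (57.1% called). The ligands Gdf10 (-1.65), Bmp3 (-1.22) and Bmp4 (-0.82) and the target genes Id4 (-1.22), Id2 (-0.68) and Id3 (-0.58), which encode inhibitors of helix-loop-helix factors, fell. Id1 had a log2 fold change of -0.47 and was not called. The antagonist Nog fell (-0.94) and the antagonist Chrd rose (0.70). Bmp3 was at -0.78 and Nog at -0.38, no longer called, without replicate number 1. Of 35 TGF-beta and activin genes 5 were higher and 5 lower (28.6% called, against 15.7% over all genes; median 0.01), with Tgfb2 (-0.72), a ligand, and Smad3 (-0.29), a signal transducer, lower and the activin subunit Inhbb (0.60) higher. Without replicate number 1 Smad3 was at -0.26, under the fold threshold. Inhbb was then at 0.31.

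Of 38 growth factors and receptors 11 were higher and 10 lower (55.3% called, against 15.7% over all genes). The ligands Ptn, Hgf (-1.40), Mdk (-0.93), Pdgfd (-0.88) and Fgf7 (-0.68) and the IGF-binding proteins Igfbp5 (-1.40) and Igfbp3 (-1.17) fell together with Igf1. Hgf, a mitogen for muscle satellite cells and epithelium, had 177 to 331 (median 285) normalized counts without fulvestrant and 73.9 to 121 (median 99.7) with it, without overlap, and shares 6.7% of its exon bases with another gene. The EGF family ligands Ereg and Hbegf (0.69) and the AXL ligand Gas6 (0.97) rose. Ace, the calcitonin receptor partners Ramp3 (1.40) and Ramp2 (1.37) and the sphingosine kinase Sphk1 (1.33) rose among 22 angiogenesis and vasoactive genes, of which 7 were higher and 4 lower (50% called). Ramp2 shares 33.4% of its exon bases with another gene. Agtr2 (-1.05), an angiotensin receptor, and Apln (-0.89), a vasoactive peptide, fell.

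Axon guidance genes, which fibroblasts use as cues for contact and migration, were lower in 20 of 52 cases and higher in 5 (48.1% called, against 15.7% over all genes; median -0.24). After Robo2 came the ephrin receptors Epha7 (-1.58) and Epha3 (-1.12) and the netrin receptor Unc5c (-1.41). Unc5c had 1718 to 2542 (median 2109.5) normalized counts without fulvestrant and 573 to 952 (median 848) with it, without overlap. The SLIT ligands differed, with Slit2 lower (-0.62) and Slit3 higher (0.52), and the semaphorin receptor Nrp2 fell (-0.82) while Nrp1 was not called (-0.07).

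Integrins, cadherins and adhesion receptors were lower in 13 of 35 cases and higher in 4 (48.6% called, against 15.7% over all genes). Cdh18 (-1.55), Cdh24 (-0.88), the mesenchymal cadherin Cdh11 (-0.63), the collagen-binding Itga2 (-0.80) and the neural adhesion molecule Ncam1 (-0.42) fell. Itga6 (0.66), a laminin receptor, Itga5 (0.56), a fibronectin receptor, and the hyaluronan receptor Cd44 (0.59) rose. Without replicate number 1 the change of Cdh24 was -0.56 and that of Itga2 was -0.29.

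Stretch-gated channels went opposite ways. Piezo2 had 2330.3 to 4934 (median 4248) normalized counts without fulvestrant and 973 to 1335 (median 1223) with it (log2 fold change -1.67, standard error 0.09, limma adjusted p = 2.82e-07), without overlap, while Piezo1 rose (0.34). Among 25 mechanosensing and Yap target genes 7 were higher and 2 lower (36.0% called, against 15.7% over all genes), a total of 9 that fell to 5 without replicate number 3. The matricellular Ccn3 fell (-1.61), its relative Ccn1 rose (0.71), and the Yap targets Ankrd1 (0.76) and Axl (0.42) rose. The call of Ankrd1 was lost without replicate number 2 (limma adjusted p = 0.159) or 3 (0.162). Of 41 contractile and cytoskeletal genes 10 were higher and 6 lower (39% called). Gsn, the actin-severing gelsolin, had 46094 to 86830.2 (median 69893) normalized counts without fulvestrant and 111023 to 192097 (median 129936) with it (log2 fold change 1.05, standard error 0.15, limma adjusted p = 0.000382), without overlap. Actn1 (0.92), an actin crosslinker, rose and Csrp2 (-1.22) fell. Acta2, the smooth muscle actin that marks myofibroblasts, and Tagln were not called (-0.02 and -0.12).

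Of 29 genes that mark fibroblast subtypes 6 were higher and 6 lower (41.4% called, against 15.7% over all genes). The median was -0.13, with 10 members positive and 19 negative, so the list as a whole did not rise. Pi16, Gsn and Ly6a (0.63), found in adventitial-type fibroblasts, rose, and the transcription factors Foxp2 (-1.82) and Meox1 (-1.43) and the tendon gene Tnmd (-1.15) fell. Foxp2 and Meox1 did not overlap between groups. Pdgfra, the general fibroblast receptor, was not called (-0.23). Meox1 was at -0.95 without replicate number 1.

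Of 25 measured interferon-stimulated genes 11 were lower, 0 were higher by limma, also at an unadjusted p under 0.05, and 14 were not called (44.0% called, against 15.7% over all genes). The median log2 fold change was -0.31, close to -0.30 for elastic fibre genes. Among genes with a mean of at least 100 normalized counts 7 were lower, and the median was -0.238. Ifi44 had 27.6 to 79.2 (median 69.2) normalized counts without fulvestrant and 11.9 to 18.7 (median 15.5) with it (log2 fold change -1.95, standard error 0.23, limma adjusted p = 8.18e-05). Its groups did not overlap, although the lowest untreated value, from E2 replicate 1, stood apart from the other 5. Ifit1, which binds foreign RNA, had 129 to 452 (median 367) and 84.7 to 161 (median 148) (log2 fold change -1.09, standard error 0.16, limma adjusted p = 0.000346), and its groups overlapped. Usp18 (-0.87), which damps interferon signalling, Oasl2 (-0.81), the tetherin Bst2 (-0.45) and the transducer Stat2 (-0.34) fell, and Irf7 and Irf9 were not called (-0.37 and -0.23). The call of Usp18 was lost without replicate number 2 (limma adjusted p = 0.0685) or 3 (0.0931). In the model with no replicate block 3 members were called, all lower. Counts of Ifi44 were low, so its fold rests on few reads.

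Interferon genes are known for the interferon-stimulated response element (ISRE, GAAA, any 2 bases and GAAA), and its letters, read on both strands, were present in the promoter windows of 10 of 21 interferon genes (47.6%) and of 3.56% of all 9439. Windows with a pair of matches are printed for Ifit1, chr19:34640639-34640938 on the plus strand, and Bst2, chr8:71537423-71537722 on the minus strand, where the matches overlap. Capitals mark the ISRE letters.
Ifit1: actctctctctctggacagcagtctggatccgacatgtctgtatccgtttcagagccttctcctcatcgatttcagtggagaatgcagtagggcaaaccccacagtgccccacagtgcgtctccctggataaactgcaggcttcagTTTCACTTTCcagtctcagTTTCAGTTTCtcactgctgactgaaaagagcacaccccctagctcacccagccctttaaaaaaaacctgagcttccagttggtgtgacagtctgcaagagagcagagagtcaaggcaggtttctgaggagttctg
Bst2: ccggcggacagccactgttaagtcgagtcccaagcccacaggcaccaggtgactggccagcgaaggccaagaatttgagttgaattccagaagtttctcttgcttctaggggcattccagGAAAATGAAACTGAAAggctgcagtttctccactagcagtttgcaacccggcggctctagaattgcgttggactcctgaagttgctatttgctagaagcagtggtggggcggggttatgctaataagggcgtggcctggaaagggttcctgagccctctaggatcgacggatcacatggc

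Of 17 chemokines and cytokines 4 were higher and 5 lower (52.9% called), a total of 9 that fell to 5 without replicate number 3. Of 13 complement genes 1 was higher and 2 were lower, so that 23.1% were called, against 15.7% over all genes. The IL-33 receptor Il1rl1 (1.62) and the neutrophil chemokine Cxcl1 (0.57) rose. The related Cxcl5 (-1.21) and Cxcl16 (-0.61) fell, as did the complement regulator Clu (-0.50). Among 20 prostaglandin genes, the cyclooxygenases Ptgs2 (0.91) and Ptgs1 (0.48) rose and the receptors Ptgfr (-0.82) and Tbxa2r (-0.65) fell, with 4 members higher and 3 lower (35.0% called).

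Of 22 steroid metabolism genes 5 were higher and 2 lower (31.8% called, against 15.7% over all genes), a total of 7 that fell to 4 with samples scaled to equal totals. Besides Sult1a1, the cortisone reductase Hsd11b1 rose (0.80), and the reductase Akr1c14 (-1.67) and the oxysterol hydroxylase Cyp7b1 (-1.45) fell. The call of Hsd11b1 was lost without replicate number 2 (limma adjusted p = 0.0898) or 3 (0.0901). Akr1c14 has close paralogs and shares 7.2% of its exon bases with another gene. Of 37 sterol and fatty acid synthesis genes 1 was higher and 4 lower, with the desaturase Fads2 at -0.66. These 5 calls were 13.5% of the list, against 15.7% over all genes, and fell to 3 without E2 plus fulvestrant replicate 2, without replicate number 2 or with quantile normalization, and to 2 without replicate number 3. Of 22 adipogenic genes 6 were higher, led by Cebpd and Apod (0.94), and 3 lower, led by Zfp423 (-0.98), while Pparg was not called (-0.31). That was 40.9% called, against 15.7% over all genes, with a median of 0.01, and 2 were called with no replicate block.

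DNA replication and mitosis genes were higher in 9 of 46 cases and lower in 0 by limma (2 at an unadjusted p under 0.05; median 0.07), which was 19.6% called against 15.7% over all genes. The 9 calls fell to 5 without E2 replicate 3, to 4 without replicate number 2 and to 1 without replicate number 3. Called members included E2f8 (0.82), Uhrf1 (0.49) and Pcna (0.35), and Mki67 (-0.11), Top2a (-0.07) and Ccnb1 (-0.03) were not called. Without replicate number 3 the limma adjusted p was 0.0521 for E2f8 and 0.0654 for Uhrf1, and without replicate number 2 it was 0.0753 for Uhrf1. Of 28 G1 cyclins and brakes 6 were higher and 2 lower (28.6% called), with the CDK inhibitor Cdkn1c higher (0.85) and the zinc finger gene Plagl1 lower (-1.0), and these 8 calls fell to 5 without replicate number 3. Plag1 (-0.11) and Plagl2 (0.17) were not called. Of 31 apoptosis regulators 6 were higher and 2 lower (25.8% called, against 15.7% over all genes), with Mcl1 (0.52), a survival factor, higher and the death receptor Fas (-0.42) lower. Those 8 calls fell to 5 without replicate number 2 and to 3 without replicate number 3. Among 20 clock genes 3 were higher and 3 lower (30.0% called), and these 6 calls fell to 2 without replicate number 2 and to 1 without replicate number 3.

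Few or no members were called in some lists. Of 76 respiratory chain subunits 0 were called by limma, with a median of -0.01, 7 at an unadjusted p under 0.05, with 1 called without vehicle replicate 3 or without fulvestrant replicate 3 and 4 without replicate number 3. Of 32 lysosome and autophagy genes 2 were higher and 0 lower by limma (2 lower at an unadjusted p under 0.05), which was 6.2% called against 15.7% over all genes, and 1 was called without fulvestrant replicate 1 or without replicate number 2. Sqstm1, the autophagy receptor p62, was the larger change (0.45).

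**Figure D4:**
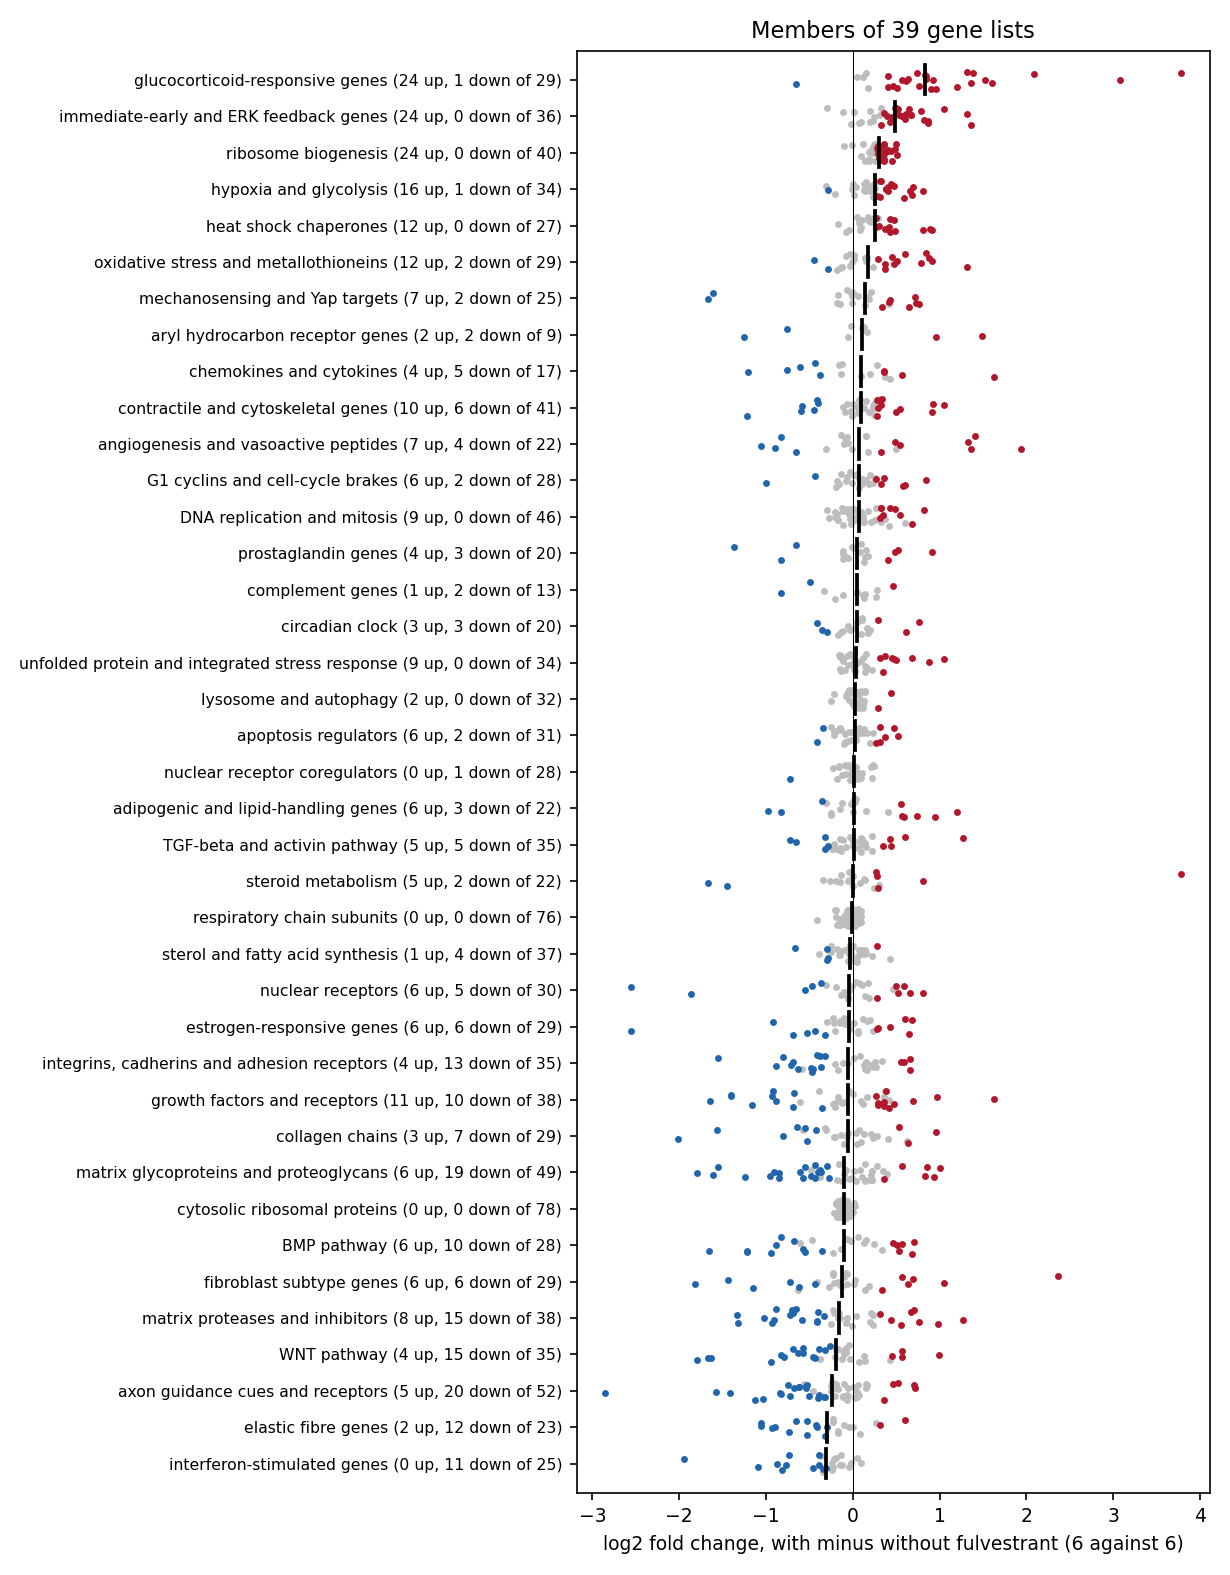
Log2 fold change with minus without fulvestrant (x axis) of every measured member of 39 gene lists, with called members in red (higher) or blue (lower), others in grey and a bar at each list's median, ordered by median. Glucocorticoid-responsive genes lie at the top (median 0.83), elastic fibre and interferon-stimulated genes lie close together at negative values (medians -0.30 and -0.31), and respiratory chain subunits lie close to 0. Lists and members were chosen with earlier results of these data known.

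The genes with the largest differences in mean normalized counts were matrix, actin and iron storage genes. Gsn rose from a mean of 68913 ± 14731 to 142514 ± 33402 (SD, n = 6), and Timp2 rose from 76934 ± 7560.3 to 103867 ± 3983. Col12a1 fell from 62249 ± 75738 to 17347 ± 18161 and Col3a1 from 126222 ± 35955 to 87526 ± 22504. The ferritin subunits Fth1 (0.61) and Ftl1 (0.35), which store iron and have many processed copies that could share reads, rose as well. The call of Ftl1 was lost without replicate number 3 (limma adjusted p = 0.105). These SDs hold the differences between replicate numbers, which the model takes out.

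The called genes with the largest difference between E2 states were Slco2a1, Pgr, Akr1c14, Opcml, Qpct, Sycp2, Myoc and Gpx3. Slco2a1, a prostaglandin transporter, had a log2 fold change of -2.22 in E2 and -0.51 without E2 (limma interaction, adjusted p = 0.944), and Akr1c14 had -2.33 and -1.01 (limma interaction, adjusted p = 0.944). Qpct, which closes the end of some secreted peptides, had -1.60 and -0.47 (limma interaction, adjusted p = 0.261), and the secreted peroxidase Gpx3 had 0.45 and 1.37 (limma interaction, adjusted p = 0.944). None of the 8 passed the adjustment. The pooled calls of Opcml, Sycp2 and Myoc were lost on leaving out single samples: of the 12 models that each left out 1 sample, Opcml was called in 2, Sycp2 in 4 and Myoc in 6. The pooled call of Slco2a1 was lost without replicate number 2 (limma adjusted p = 0.0966) or 3 (0.134).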

How the data were processed

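RNA-Seq of 12 HAF cultures was analysed, in 4 groups of 3 taken from the labels. Per the study's methods, ribosome-depleted libraries were trimmed (Trimmomatic 0.39), aligned to mm10 (STAR 2.5.2) and counted by gene with strand (HTSeq 0.13.5), and genes with few reads were removed. The authors deposited median-of-ratios signal values (DESeq2 1.37): reads divided by a size factor per sample, called normalized counts here. The values are whole numbers of reads times 1 factor per sample, within 0.02 reads, and were tested as deposited, as log2(value + 1) with limma 3.58.1 in R 4.3.3 (empirical Bayes with variance trend). The model had fulvestrant, E2 and replicate number as terms and left 7 residual degrees of freedom. A separate model with 4 group means and replicate number gave the effect in each E2 state and the interaction. The call rule was an adjusted p (Benjamini-Hochberg, over 13233 genes) under 0.05 together with a fold over 1.2. A log2 fold change on the log2(value + 1) scale understates changes of low genes. The test was checked on simulated data.

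The replicate numbers come from the sample titles. Deviations of same-numbered samples from their group means correlated at 0.63 to 0.92 over 18 pairs (median 0.75). The number was a block for this reason. Samples numbered 2 and samples numbered 3 of different groups also correlated with each other, at 0.632 to 0.792. Number 1 against the other numbers gave -0.862 to -0.706. The deviations thus set number 1 apart and do not show whether numbers 2 and 3 mark separate pairs. A batch correction is described in the methods, but the deposited values still separated by replicate number.

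Members and lists were chosen with earlier results of these data known. Named genes were the 15 largest rises and falls among called genes that moved 1 way in 6 of 6 pairs with a mean of at least 50, up to 4 called members with the largest change in each of 39 lists plus members with a defining role, the 8 called genes with the largest interaction, the 5 with the largest difference in mean each way, and genes the study names. Other list members named were chosen after their values were seen. Gene positions and exon sharing on the same strand come from GENCODE M21 (GRCm38, the same assembly as mm10). Of 13233 genes, 13149 had a symbol and 84 had no position. Depth was 18827792 to 44040507 reads on listed genes. Figures and tables were made in Python 3.11.15. Alternatives were no replicate block, a coarser block, other pseudocounts, a mean of at least 100, no variance trend, 2 other scalings, the adjusted p alone and leaving out each sample or replicate number. A gene that the study removed for few reads was not analysed here, and some genes are not reported here.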

Additional observations from a re-analysis of the deposited data

Results flagged for a closer look

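In the groups of 6 samples with and without fulvestrant, 344 groups of values of named genes were examined for 1 sample far from the other 5. Of these, 9 (2.6%) had one. The cut-off gives about 1 in 20 for independent values, a rate that does not apply here. Each group held replicate number 1 samples of both E2 states, which lay apart together and can hide each other. All 9 were samples of replicate number 1. Among samples without fulvestrant, E2 replicate 1 stood at 64.11 normalized counts of Sult1a1 (the other 5 at 32.2 to 43.1), at 2300 of Col5a3 (660.3 to 1257.0), at 27.62 of Ifi44 (64.0 to 79.2) and at 70.03 of Ramp3 (44.1 to 52.1). Vehicle replicate 1 stood at 1025 of Col14a1 (281.9 to 361.0), at 4715 of Fbn2 (2397.9 to 3221.8) and at 1002 of Tgfb2 (642.9 to 769.4). Among samples with fulvestrant, E2 plus fulvestrant replicate 1 stood at 1062 of Fbn2 (1614.0 to 1931.9) and at 7962 of Ndrg1 (8905.5 to 9250.3). The calls of these genes held in each of the 12 models that left out 1 sample. The reason for the position of the replicate 1 samples was not tested.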

How the results depend on the processing

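The replicate block decided how many genes were called. With no replicate block the calls fell to 183 higher and 203 lower, to 69 in E2 and to 72 without E2, and all 386 pooled calls were among the 2074, while the median standard error rose from 0.06 to 0.12. Of 170 named genes called, 57 were also called with no replicate block. A block of replicate 1 against 2 and 3, either pseudocount, a mean of at least 100, no variance trend and both other scalings kept the pooled counts within 1.5 times. Scaling to equal totals gave 875 higher and 1200 lower and moved the median log2 fold change by -0.027. The adjusted p alone called 2163 higher and 1721 lower genes.

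Leaving out 1 sample or 1 replicate number gave 797 to 1222 higher and 805 to 1097 lower genes. Without 1 sample the count in E2 ran from 772 to 1543 and that without E2 from 1048 to 2061, and without 1 replicate number from 316 to 1611 and from 399 to 2312, with the lowest values when replicate number 3 was left out. The interaction called 0 to 11 genes and the E2 term 0 to 5, the highest counts of both coming without replicate number 1. Of the 2074 calls, 1534 (74.0%) held in each of the 12 models without 1 sample. All 172 named genes kept their sign under every alternative run. DESeq2 and edgeR were not run on the reads that can be recovered from the normalized values. Genes with under 10 reads in a sample are not listed, so changes of genes that were silent in any sample were not detectable.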

Other observations

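Of 736 processed pseudogenes tested, 35 (4.8%) were called higher with fulvestrant and 5 (0.7%) lower, against 8.2% and 8.6% of 11623 protein-coding genes. Reads of a pseudogene can come from its parent gene. Of 143 antisense genes 1 (0.7%) was higher and 10 (7.0%) were lower, the latter close to the 7.9% over all genes. Summed over called genes, mean normalized counts were 1086772 higher for the genes that rose and fell by 856750 for those that were lower.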
